A study of Homo sapiens with 12 samples.

Results

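The replication-dependent histone genes were taken as every entry of the total RNA count table whose symbol begins with HIST1H, HIST2H, HIST3H or HIST4H, without the pseudogene entries whose symbols end in P or PS and a number. The rule found 90 such entries, left out 15 as pseudogenes by their symbols, and so kept 75 histone genes among the 54261 genes counted. Of the entries left out, HIST2H3PS2 is classed as protein-coding in RefSeq. They comprised 6 H1, 17 H2A, 23 H2B, 14 H3 and 15 H4 genes, of which 55 lie in the HIST1 cluster, 15 in HIST2, 4 in HIST3 and 1 in HIST4. All 75 were found in the RefSeq gene table (GRCh38.p14), where 5 of them (HIST2H2BA, HIST2H2BB, HIST2H2BC, HIST2H2BD and HIST3H2BA) are classed as pseudogenes although their symbols do not say so.

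The study compared HCT116oxR, a line selected from the human colorectal carcinoma line HCT116 by stepwise exposure to oxaliplatin up to 5 µmol/L, with the parental HCT116 cells. Oxaliplatin is a platinum compound that binds and crosslinks DNA. Total RNA of 3 cultures of HCT116oxR and 3 cultures of parental HCT116 was sequenced, each culture grown and harvested on its own. Since there is 1 resistant line, p-values reflect how much cultures of a line vary, not how resistant lines vary, and the labels do not say whether the drug was present at harvest.

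Replication-dependent histone genes supply the proteins that package newly copied DNA: H2A, H2B, H3 and H4 form the core of the nucleosome, and H1 binds the linker DNA between nucleosomes. The genes generally lack introns, lie in clusters, and are transcribed mainly in S phase. Their messages as a rule end in a stem-loop bound by the stem-loop binding protein SLBP in place of a poly(A) tail, and they are degraded when DNA synthesis stops.

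The histone families carry different short sequences around the starts of their genes. RefSeq promoter sequences (GRCh38.p14), running from 250 bases before to 50 bases after the annotated gene start, were at hand for 65 of the 75 members and were searched on both strands. The octamer ATTTGCAT is a site known to be bound by the factor OCT1 (gene POU2F1) in H2B promoters. It occurred in 14 of 18 H2B, 11 of 16 H2A and 1 of 12 H3 promoters. None of the 6 H1 or 13 H4 promoters held it, against 1.77% of all 34943 promoters. In H2A promoters 1 of 11 octamers lay in the direction of transcription. Many H2A genes lie head to head with an H2B gene, so their promoter sequences overlap and 1 octamer can be counted for both. The H3 promoter with an octamer is that of HIST1H3D. Its annotated start is also that of HIST1H2AD, so the same sequence was counted in both families. The H1 box AAACACA is a motif named for its place in H1 promoters. It occurred in 6 of 6 H1, 1 of 16 H2A and 2 of 12 H3 promoters and in no H2B or H4 promoter. Of all promoters, 5.66% held it. The H2A and H3 matches lay after the gene start. CCAAT was in every H1, H2A, H2B and H3 promoter and in 3 of 13 H4 promoters, against 34.6% of all promoters. TATAAA was in 3 of 6 H1, 12 of 16 H2A, 12 of 18 H2B, 9 of 12 H3 and 7 of 13 H4 promoters. The share over all promoters was 11.6%. These matches may lie anywhere in the sequence searched, on either strand. TATAAA began 20 to 40 bases before the gene start in 3 H1, 11 H2A, 8 H2B, 8 H3 and 5 H4 promoters.

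A set of H2B promoters is shown from just before the octamer up to the gene start or just short of it, with the octamer and, where present, TATAAA in capitals. They were picked to set genes with many counts beside genes with almost none. HIST1H2BJ, HIST2H2BE and HIST1H2BM were measured well above the filter on low counts, HIST1H2BK had few counts, HIST1H2BG had 10 in all libraries together, and HIST1H2BH had 0.
HIST1H2BJ (chr6:27132796-27132854, minus strand): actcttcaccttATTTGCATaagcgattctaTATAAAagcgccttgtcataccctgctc
HIST2H2BE (chr1:149886683-149886740, minus strand): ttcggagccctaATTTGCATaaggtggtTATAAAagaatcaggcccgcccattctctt
HIST1H2BM (chr6:27814962-27815021, plus strand): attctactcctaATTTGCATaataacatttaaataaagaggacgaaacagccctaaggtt
HIST1H2BK (chr6:27146859-27146916, minus strand): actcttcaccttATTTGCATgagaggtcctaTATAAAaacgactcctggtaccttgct
HIST1H2BG (chr6:26216689-26216748, minus strand): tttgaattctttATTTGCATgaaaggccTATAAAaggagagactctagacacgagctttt
HIST1H2BH (chr6:26251553-26251612, plus strand): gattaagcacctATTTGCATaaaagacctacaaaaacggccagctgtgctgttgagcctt

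In 8 of the 14 H2B promoters with an octamer it began 40 to 50 bases before the gene start, and in 13 of 14 it lay in the direction of transcription. HIST1H2BJ and HIST1H2BK share the bases on the 5′ side of their octamers, and both promoters hold TATAAA. CPM, the unit of level used below, are read counts scaled to a common library total with TMM factors and are not corrected for gene length. HIST1H2BJ averaged 141 CPM in HCT116oxR cells and 129.5 CPM in parental cells, and HIST1H2BK averaged 4.74 CPM in HCT116oxR cells and 5.02 CPM in parental cells, over a longer annotated span.

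The H1 box is shown for 2 H1 genes with high counts and 2 with almost none, with the box in capitals. HIST1H1C and HIST1H1E encode the linker histones that held nearly all H1 counts, whereas HIST1H1B and HIST1H1D had 3 and 6 counts over all 6 libraries.
HIST1H1C (chr6:26056571-26056601, minus strand): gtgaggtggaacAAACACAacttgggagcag
HIST1H1E (chr6:26156200-26156230, plus strand): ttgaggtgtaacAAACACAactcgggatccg
HIST1H1B (chr6:27867687-27867717, minus strand): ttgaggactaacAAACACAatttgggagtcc
HIST1H1D (chr6:26235088-26235118, minus strand): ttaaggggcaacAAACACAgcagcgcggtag

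In 5 of the 6 H1 promoters a box began 100 to 125 bases before the gene start. Both the octamer and the H1 box thus stood ahead of genes with high counts and of genes with none or nearly none in these cells.

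The libraries held 12259870 to 13558077 counts in HCT116oxR cells and 11950069 to 13340564 in parental cells, and 17511 genes passed the filter on low counts. Of 9 epithelial markers 8 were detected well enough to test, among them EPCAM and KRT8, with 6 higher and 1 lower in HCT116oxR, while VIL1, an intestinal actin-bundling protein, was near 0. Markers of blood, endothelial, mesenchymal and other cells summed to 45.1 to 49.7 CPM in HCT116oxR libraries and 53.4 to 59.7 CPM in parental ones, nearly all of it from COL1A1, with PTPRC, CD3E and GFAP at 0. Among HCT116oxR libraries, replicate 2 stood apart for the histone genes: it had the highest level of its line for 36 of the 50 members tested, against 34.3% of all genes. Among parental libraries, replicate 2 had the lowest level for 30 of 50 members, against 32.4% of all genes.

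Of the 75 members, 50 passed the filter. The other 25 had at most 37 counts over all libraries, and 7 of them had 0 in every library, where 3 counts would correspond to 0.221 to 0.251 CPM. By mean level over the 6 libraries, 32 members reached 50 CPM or more, 7 lay between 10 and 50, 9 between 1 and 10, and 27 under 1 CPM. The 10 members with the most CPM held 55.7% of the summed histone CPM, and the 32 members of 50 CPM or more held 96.97%. Per length of the annotated gene, and over genes spanning at most 1000 bases, HIST2H2AC was highest at 1148 CPM per kb over both lines, followed by HIST1H2AM at 1013, HIST1H2AJ at 812 and HIST1H2AG at 792.5, all of them H2A genes. The highest H4 gene on this scale was HIST1H4D at 612, the highest H1 gene HIST1H1C at 572 and the highest H2B gene HIST1H2BO at 565 CPM per kb.

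The first comparison asked whether the histone messages as a whole differed between the lines. Summed over all 75 members, they reached 6482, 6965 and 6412 CPM in HCT116oxR libraries, against 7058, 6735 and 7004 CPM in parental libraries. The lines overlap, because HCT116oxR replicate 2 lies above parental replicate 2. The means were 6620 ± 301 CPM in HCT116oxR and 6932 ± 173 CPM in parental cells (SD, n = 3 each) at a ratio of 0.955. As a share of all counts the histone genes made up 0.662% ± 0.0300 in HCT116oxR and 0.690% ± 0.0169 in parental cells (SD, n = 3 each).

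By family, the H1 sum was 737 ± 13.2 CPM in HCT116oxR and 734 ± 22.4 CPM in parental cells (SD, n = 3 each, here and for the other families). H2A messages summed to 2649 ± 120 CPM in HCT116oxR and 2790 ± 62.8 in parental cells, and H2B messages to 1465 ± 85.8 CPM in HCT116oxR and 1544 ± 59.2 in parental cells. H3 messages summed to 947.7 ± 47.7 CPM in HCT116oxR and 1013 ± 17.3 in parental cells, and H4 messages to 821.7 ± 48.6 CPM in HCT116oxR and 850.8 ± 29.99 in parental cells. As shares of the histone CPM, H2A genes gave 40.01% in HCT116oxR and 40.25% in parental cells, and H2B genes 22.1% in HCT116oxR and 22.3% in parental cells. H3 genes gave 14.3% in HCT116oxR and 14.6% in parental cells, and H4 genes 12.4% in HCT116oxR and 12.3% in parental cells. The H1 share was 11.1% ± 0.345 in HCT116oxR and 10.6% ± 0.0994 in parental cells (SD, n = 3 each), and by library H1 genes gave 11.2%, 10.8% and 11.5% in HCT116oxR libraries, against 10.55%, 10.5% and 10.7% in parental libraries, without overlap.

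**Figure D1:**
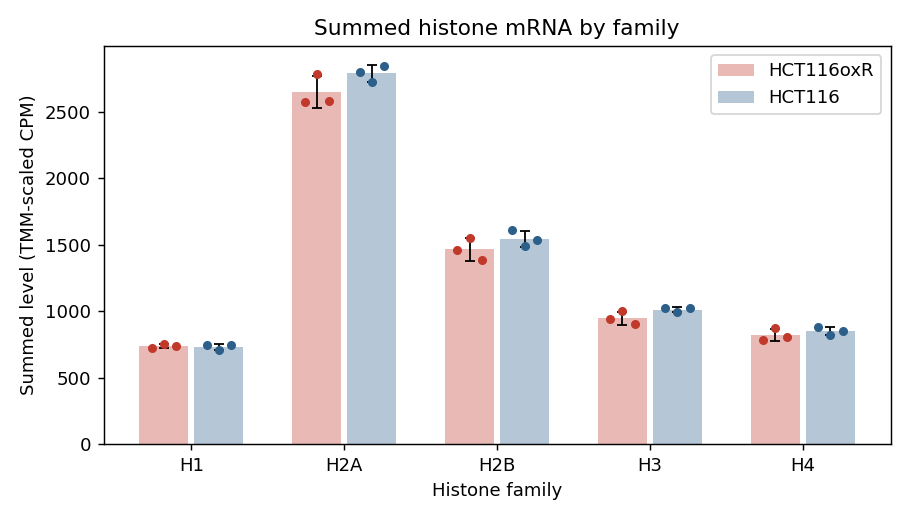
Summed level of the H1, H2A, H2B, H3 and H4 genes in TMM-scaled CPM, with 1 point per library, HCT116oxR left of parental HCT116, and bars at the mean with the SD over 3 libraries. H2A genes have the largest sums in both lines (2649 CPM in HCT116oxR and 2790 CPM in parental cells), and within each family the difference in means is small beside the levels.

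Other measures differed between the lines as well. Other RNAs known to lack a poly(A) tail, led by 7SK (RN7SK) and the signal recognition particle RNAs, summed to 14480, 15820 and 15050 CPM in HCT116oxR libraries, against 19300, 17520 and 17520 CPM in parental libraries; here too replicate 2 was the highest HCT116oxR library. A list of 44 S phase genes summed to 5783, 5649 and 5806 CPM in HCT116oxR libraries, against 6019, 6055 and 6051 CPM in parental libraries, with replicate 2 the lowest HCT116oxR library. The part of either measure in the histone values was not tested, and in bulk RNA fewer cells in S phase and less histone RNA per cell cannot be told apart.

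Single histone genes were then compared between the lines with edgeR's quasi-likelihood test, with Benjamini-Hochberg adjustment over all 17511 genes and a threshold of 0.05. Of the 50 members tested, 3 were higher and 14 lower in HCT116oxR, and 33 were not called. The 17 called are 34.0% of the members tested, against 44.1% of all genes tested. By direction, 6% of members were higher, against 22.3% of all genes, and 28% were lower, against 21.8% of all genes. With edgeR, 0 of 50 members were called at a difference of 2-fold or more, against 8.71% of all genes, while 23 of 50 had an unadjusted p under 0.05. The log2 fold changes ran from -0.695 to 0.44 with 34 below and 16 above 0, and their median was -0.071, against -0.001 over all genes tested. The lines did not overlap in 18 of 50 members, against 50.5% of all genes.

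Without HCT116oxR replicate 2 the count of lower members was 23 and that of higher members 2, and without parental replicate 2 the counts were 18 and 1. Among the 32 members of 50 CPM or more, 3 were higher and 11 lower, so that 43.75% were called, against 44.1% of all genes.

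**Figure D2:**
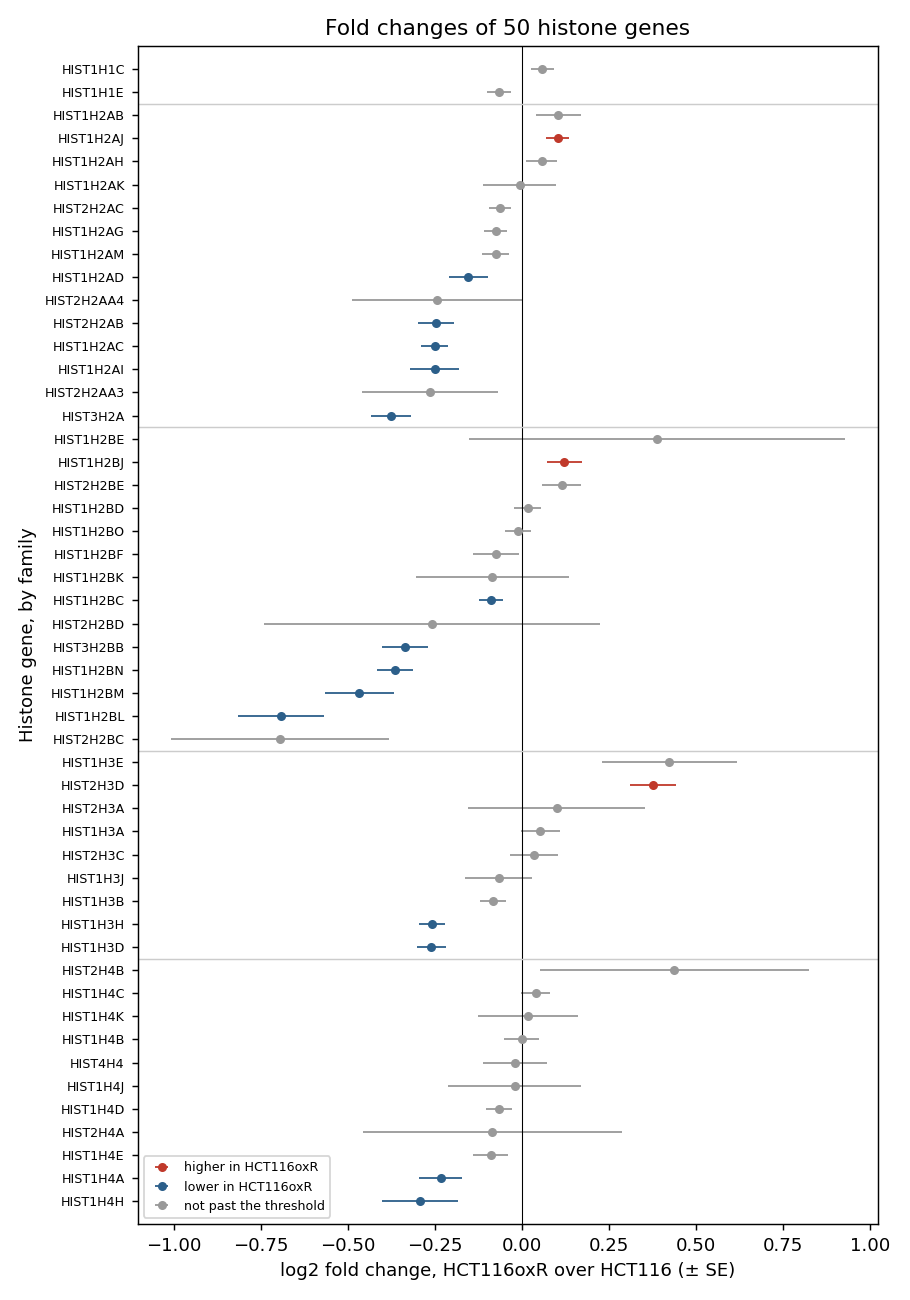
Log2 fold change of HCT116oxR over parental HCT116 for the 50 histone genes tested, with the SE as bars, ordered by family and coloured by whether the gene was called higher, called lower or not called. The 14 genes called lower reach down to -0.69 (HIST1H2BL) and the 3 called higher reach up to 0.38 (HIST2H3D); the wider bars at both ends belong to genes with few counts.

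Of the H1 genes 2 were tested, and neither was called. HIST1H1C, which encodes the linker histone H1.2, had 422.4, 429.4 and 427.9 CPM in HCT116oxR libraries, against 412.2, 398.4 and 417.5 CPM in parental libraries. The lines did not overlap, yet the log2 fold change of 0.059 ± 0.033 (SE) was not called (adjusted p = 0.137). HIST1H1E, which encodes H1.4, had 301.6, 321.3 and 307.0 CPM in HCT116oxR, against 331.6, 309.6 and 331.9 CPM in parental cells, overlapping ranges with a log2 fold change of -0.066 ± 0.035 (adjusted p = 0.126). HIST1H1E was called lower without HCT116oxR replicate 2 (-0.093) and without parental replicate 2 (-0.10). The remaining H1 genes, HIST1H1A, HIST1H1B, HIST1H1D and the testis gene HIST1H1T, had at most 28 counts in all and were not tested.

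Among the 14 H2A genes tested, 1 was higher and 5 were lower, so that 42.9% were called, against 44.1% of all genes. HIST2H2AC, the member with the most CPM, had 536.6, 585.2 and 541.7 CPM in HCT116oxR libraries, against 553.2, 585.7 and 600.1 CPM in parental libraries. Its ranges overlap, and its log2 fold change was -0.064 ± 0.032 (adjusted p = 0.0999). It was called lower without HCT116oxR replicate 2 (-0.104) and without parental replicate 1 (-0.098). HIST1H2AM had 460.4, 522.3 and 457.4 CPM in HCT116oxR, against 516.9, 480.1 and 521.5 CPM in parental cells, and HIST1H2AG had 371.8, 399.2 and 370.1 CPM in HCT116oxR, against 409.3, 394.0 and 399.7 CPM in parental cells. Each overlaps between the lines at a log2 fold change of -0.076, with adjusted p of 0.12 for HIST1H2AM and 0.056 for HIST1H2AG. Without HCT116oxR replicate 2 both were called lower, HIST1H2AM at -0.141 and HIST1H2AG at -0.112, and HIST1H2AM also without parental replicate 2 (-0.114).

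HIST3H2A, one of the histone genes known to give polyadenylated as well as stem-loop messages, had 68.0, 70.6 and 68.4 CPM in HCT116oxR libraries, against 89.3, 86.6 and 92.7 CPM in parental libraries. Every HCT116oxR library was below every parental one, and the gene fell by 0.38 on the log2 scale (SE 0.058, adjusted p = 1.94e-08). HIST1H2AC had 218.9, 232.9 and 235.3 CPM in HCT116oxR, against 270.7, 274.4 and 272.7 CPM in parental cells, also without overlap, and fell by 0.25 (SE 0.038, adjusted p = 5.93e-09). HIST2H2AB, with 102 CPM in HCT116oxR and 121 CPM in parental cells on average, fell by 0.25 (adjusted p = 4.87e-05). HIST1H2AI and HIST1H2AD were lower with ranges that overlap. The call on HIST1H2AI was lost with DESeq2 and without HCT116oxR replicate 1, and that on HIST1H2AD was lost with DESeq2 and in 4 of the 6 fits that left out a library.

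HIST1H2AJ was the H2A gene that rose. It had 408.7, 403.3 and 389.2 CPM in HCT116oxR libraries, against 378.6, 366.8 and 373.1 CPM in parental libraries, with no overlap and a log2 fold change of 0.10 ± 0.033 (adjusted p = 0.00726), a call that was lost without parental replicate 2. HIST1H2AJ and HIST1H2AI lie in the same stretch of HIST1 and share 252 of 300 promoter bases (84.0%), among them the window around TATAAA (in capitals), which is the same in both genes.
HIST1H2AJ (chr6:27814791-27814820, minus strand): cccagtagaggcTATAAAatgtacgttttt
HIST1H2AI (chr6:27808130-27808159, plus strand): cccagtagaggcTATAAAatgtacgttttt
Per length, HIST1H2AJ averaged 841 CPM per kb in HCT116oxR and 783.4 in parental cells, whereas HIST1H2AI averaged 113 CPM per kb in HCT116oxR and 134.9 in parental cells, and their log2 fold changes of 0.10 and -0.25 had opposite signs.

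Among the 14 H2B genes tested, 1 was higher and 5 were lower, so that 42.9% were called, against 44.1% of all genes. The family held the largest decrease called. HIST1H2BL had 11.8, 13.7 and 14.8 CPM in HCT116oxR libraries, against 25.7, 18 and 21.0 CPM in parental libraries. The ranges do not overlap, and HIST1H2BL fell by 0.69 on the log2 scale (SE 0.12, adjusted p = 9.24e-07). HIST1H2BM had 21.4, 23.4 and 22.2 CPM in HCT116oxR, against 31.2, 31.6 and 29.9 CPM in parental cells, again without overlap, and fell by 0.47 (SE 0.098, adjusted p = 2.54e-05). HIST1H2BN, at 139.9, 148.5 and 118.9 CPM in HCT116oxR, against 173.0, 171.1 and 181.1 CPM in parental cells, fell by 0.365 (SE 0.051, adjusted p = 3.62e-08). HIST3H2BB, at 58.6, 63.4 and 57.0 CPM in HCT116oxR, against 84.5, 71.6 and 69.7 CPM in parental cells, fell by 0.34 (SE 0.065, adjusted p = 5.40e-06).

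The most abundant H2B messages by CPM showed smaller differences. HIST1H2BC had 348.7, 378.2 and 329.0 CPM in HCT116oxR libraries, against 378.8, 365.7 and 379.0 CPM in parental libraries. The ranges overlap, and the call at a log2 fold change of -0.089 ± 0.035 (adjusted p = 0.0322) was lost without scaling factors, with DESeq2 and in 4 of the 6 fits that left out a library. HIST1H2BD had 299.5, 320.2 and 299.9 CPM in HCT116oxR, against 328.5, 285.8 and 294.9 CPM in parental cells, and was not called (log2 fold change 0.016 ± 0.038, adjusted p = 0.774). HIST1H2BO had 268.5, 272.3 and 248.0 CPM in HCT116oxR, against 276.2, 265.2 and 253.4 CPM in parental cells, and was not called (-0.011 ± 0.038, adjusted p = 0.845). Both overlap between the lines. HIST1H2BJ, the H2B gene called higher, had 148.4, 146.4 and 128.1 CPM in HCT116oxR, against 139.1, 118.6 and 131.0 CPM in parental cells. Its ranges overlap, and the call at 0.12 ± 0.050 (adjusted p = 0.0415) was lost with DESeq2, without the filter on low counts and in 4 of the 6 fits that left out a library. At low levels, HIST2H2BC had the lowest log2 fold change of all members, -0.695 ± 0.31, from 74 counts in HCT116oxR and 115 in parental cells. HIST1H2BE had one of 0.39 ± 0.54, from 34 counts in HCT116oxR and 25 in parental cells, and neither gene was called (adjusted p = 0.0619 and 0.599), though HIST2H2BC was called lower without parental replicate 2 (-0.849).

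Of the 14 H2B genes with an octamer in the promoter, 8 were tested, with 1 higher, 2 lower and a median log2 fold change of -0.043. Of the 4 H2B genes with a promoter sequence but no octamer (HIST1H2BD, HIST1H2BL, HIST1H2BN and HIST3H2BB), all 4 were tested, with 3 lower and a median of -0.35. Those lower were 25% of the 8 and 75% of the 4, against 21.8% of all genes. The split was made with the fold changes known, so it is given as a description. Over all families the medians were close: -0.076 for the 17 tested members with an octamer and -0.066 for the 27 with a promoter sequence but no octamer.

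Among the 9 H3 genes tested, 1 was higher and 2 were lower, so that 33.3% were called, against 44.1% of all genes. HIST2H3D had 101.6, 108.0 and 90.3 CPM in HCT116oxR libraries, against 71.4, 71.8 and 88.0 CPM in parental libraries. The lowest HCT116oxR library lies just above the highest parental one, and HIST2H3D rose by 0.38 on the log2 scale (SE 0.066, adjusted p = 7.25e-06), the largest increase called in the histone set. HIST1H3H had 237.5, 245.5 and 228.0 CPM in HCT116oxR, against 291.3, 275.8 and 283.8 CPM in parental cells, without overlap, and fell by 0.26 (SE 0.037, adjusted p = 1.80e-09). HIST1H3D had 155.0, 163.2 and 158.1 CPM in HCT116oxR, against 190.9, 194.4 and 185.2 CPM in parental cells, without overlap, and fell by 0.26 (SE 0.042, adjusted p = 7.11e-08). The span of HIST1H3D holds that of HIST1H2AD on the same strand, so reads of these genes may be shared.

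HIST1H3B, the H3 gene with the most CPM, had 254.5, 280.2 and 252.1 CPM in HCT116oxR libraries, against 292.1, 265.7 and 275.5 CPM in parental libraries. Its ranges overlap and it was not called (log2 fold change -0.083 ± 0.038, adjusted p = 0.0686), but it was called lower without HCT116oxR replicate 2 (-0.133) and without parental replicate 2 (-0.115). HIST1H3E had 6.79, 7.39 and 6.93 CPM in HCT116oxR, against 5.74, 4.79 and 5.18 CPM in parental cells. Its lines do not overlap, but at 276 counts in HCT116oxR and 197 in parental cells the log2 fold change of 0.42 ± 0.19 was not called (adjusted p = 0.0677). The near-identical genes HIST2H3A and HIST2H3C, whose reads the counting may have divided, were not called: HIST2H3A averaged 3.78 CPM in HCT116oxR and 3.53 CPM in parental cells, and HIST2H3C 57.8 CPM in HCT116oxR and 56.5 CPM in parental cells. HIST2H3A lies within the annotated span of HIST2H4B, whereas HIST2H3C overlaps no other annotated gene.

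Among the 11 H4 genes tested, 2 (18.2%) were called, both of them lower, against 44.1% of all genes called. HIST1H4A had 62.3, 69.4 and 62.4 CPM in HCT116oxR libraries, against 80.5, 77.0 and 70.7 CPM in parental libraries, without overlap, and fell by 0.23 on the log2 scale (SE 0.062, adjusted p = 0.001). HIST1H4H had 18.4, 20.5 and 17.8 CPM in HCT116oxR, against 24.2, 22.2 and 23.2 CPM in parental cells, without overlap, and fell by 0.29 (SE 0.11, adjusted p = 0.0218). That call was lost without HCT116oxR replicate 1, HCT116oxR replicate 3 or parental replicate 1. The 3 H4 genes with the most CPM overlapped between the lines and were not called. HIST1H4D had 226.5, 256.4 and 240.5 CPM in HCT116oxR, against 252.9, 249.9 and 254.5 CPM in parental cells (log2 fold change -0.066 ± 0.038, adjusted p = 0.162). HIST1H4C had 194.3, 217.0 and 204.5 CPM in HCT116oxR, against 210.1, 192.7 and 196.4 CPM in parental cells (0.039 ± 0.041, adjusted p = 0.475). HIST1H4E had 118.0, 134.0 and 116.3 CPM in HCT116oxR, against 134.3, 118.9 and 138.7 CPM in parental cells (-0.090 ± 0.051, adjusted p = 0.155). In all 3 genes HCT116oxR replicate 2 was the highest library of its line. Without it HIST1H4D (-0.113) and HIST1H4E (-0.158) were called lower, and HIST1H4E also without parental replicate 2 (-0.154). HIST1H4B was level at 115.5 CPM in each line. The differences of HIST2H4B rest on few reads: with 74 counts in HCT116oxR and 52 in parental cells it had the highest log2 fold change of all members at 0.44 ± 0.39, without a call (adjusted p = 0.383), and its near-identical copy HIST2H4A one of -0.085 ± 0.37, so reads divided between the copies leave both values uncertain. The annotated span of HIST2H4B, 16753 bases, also holds HIST2H2BC, HIST2H2AA4 and HIST2H3A, so how reads of these genes were assigned is uncertain too.

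By cluster, HIST1 had 2 higher and 11 lower of 35 genes tested, HIST2 had 1 higher and 1 lower of 12, and HIST4H4, the lone gene of its cluster, was not called at 31.2 CPM in HCT116oxR and 31.6 CPM in parental cells. The share called was 37.1% in HIST1 and 16.7% in HIST2, against 44.1% of all genes. In HIST3 both genes tested were lower, and the cluster summed to 126.9, 134.0 and 125.4 CPM in HCT116oxR libraries, against 173.9, 158.5 and 162.4 CPM in parental libraries. The HIST3 ranges do not overlap, unlike those of the histone total. Taken singly, 50.5% of all genes tested did not overlap between the lines.

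In the clusters many H2A and H2B genes lie head to head and share the stretch of DNA between their starts. There were 11 such pairs, with starts 194 to 248 bases apart (median 236), and in 9 of them both genes were tested. Both partners were lower in 3 pairs: HIST1H2AC with HIST1H2BC (log2 fold changes of -0.25 and -0.089), HIST1H2AI with HIST1H2BL (-0.25 and -0.69) and HIST3H2A with HIST3H2BB (-0.38 and -0.34). In 6 of the 9 pairs the signs were the same. With 34 of the 50 members tested below 0, unpaired genes often share a sign too, and whether pairs differ from them was not tested. HIST1H2AJ and HIST1H2BM, 245 bases apart, were called in opposite directions, at 0.10 and -0.47. The levels per length within that pair also differed: HIST1H2AJ had 841 CPM per kb in HCT116oxR and 783.4 in parental cells, and HIST1H2BM 47.8 CPM per kb in HCT116oxR and 66.1 in parental cells. HIST1H2AK, at -0.007 ± 0.10, was not called beside HIST1H2BN at -0.365, and HIST1H2AG, at -0.076, was not called beside HIST1H2BJ at 0.12.

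The HIST1 cluster spans chr6:25726063-27893891 in GRCh38.p14. Genes with under 1 CPM numbered 21 of its 55 members, and 14 of them lay in 3 runs of at least 3 neighbouring histone genes, counted in order of position. The first run comprised HIST1H2AA, HIST1H2BA and HIST1H1A, with 10 counts in all libraries together. The second comprised HIST1H1D, HIST1H4F, HIST1H4G, HIST1H3F, HIST1H2BH, HIST1H3G and HIST1H2BI over 39.2 kb (chr6:26234212-26273412), again with 10 counts in all, and none of its genes averaged over 0.0778 CPM. The third comprised HIST1H2AL, HIST1H1B, HIST1H3I and HIST1H4L over 8.2 kb (chr6:27865317-27873534), with 8 counts in all. Next to the third run, HIST1H3J, HIST1H2AM and HIST1H2BO lie within 3.6 kb at means of 30.4 to 493 CPM. Counts were low in both lines there: the second run had 8 counts in HCT116oxR and 2 in parental cells, and the third had 5 in HCT116oxR and 3 in parental cells. How reads that match several histone genes were counted is not given, so counts at or near 0 need not mean that a gene was silent.

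HIST1H2AE, outside these runs, had 1 count in HCT116oxR libraries together and 18 in parental libraries, too few to be tested, and the lines did not overlap. The 4 histone genes known from testis (HIST1H1T, HIST1H2AA, HIST1H2BA and HIST3H3) summed to 0.325 CPM in HCT116oxR and 0.717 CPM in parental cells, and none was tested. HIST1H4I, which lies within the span of HIST1H2BK, and HIST2H2BF had 0 counts in every library.

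**Figure D3:**
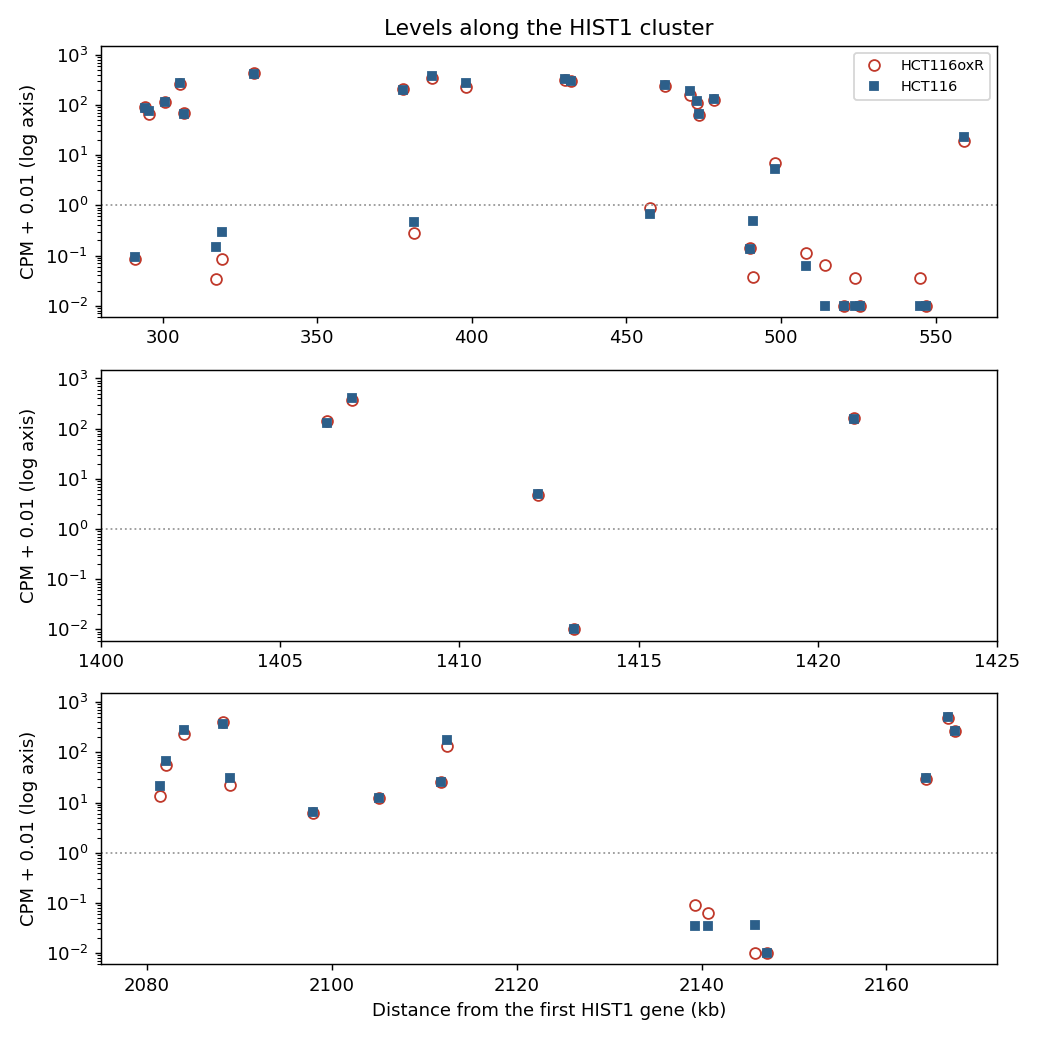
Mean CPM plus 0.01 (log axis) of HIST1 genes against distance from the first HIST1 gene in kb, in 3 panels that leave out HIST1H2AA and HIST1H2BA (at or near 0 in both lines) and the long stretches between groups of histone genes, HCT116oxR and parental HCT116 as separate symbols, with a dotted line at 1 CPM. Genes above 50 CPM and genes near 0 stand side by side, and the symbols of the lines nearly coincide except at the lowest counts.

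Non-histone genes in the same interval were set beside the cluster. Of 19 protein-coding neighbours between the first and last HIST1 gene, 12 were tested, with 5 higher, 1 lower and a median log2 fold change of 0.12, against -0.067 for the 35 HIST1 genes. The share of neighbours called was 50%, against 44.1% of all genes. By direction, 41.7% were higher, against 22.3% of all genes, and 8.33% were lower, against 21.8% of all genes. ZNF391, a zinc finger gene, had 4.28, 4.40 and 3.75 CPM in HCT116oxR libraries, against 0.0755, 0.168 and 0 CPM in parental libraries, where it had 3 counts in all. TRIM38 rose by 0.23 and PRSS16 by 0.685 on the log2 scale, and ABT1 fell by 0.33 (adjusted p = 7.83e-05, 3.58e-05 and 7.23e-05). The difference between the neighbours and the histone genes was not tested.

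Histone genes outside the clusters, which mostly encode variants and give polyadenylated messages, were the second comparison; H2AFX is known to give a stem-loop message as well. All 12 listed were tested, with 5 higher and 3 lower, so that 66.7% were called, against 44.1% of all genes. H1F0 and CENPA moved by more than any called gene of the clusters. H1F0, which encodes the linker histone H1.0 found in slowly dividing and differentiated cells, had 337.3, 376.8 and 355.4 CPM in HCT116oxR libraries, against 663.1, 656.5 and 668.4 CPM in parental libraries. The lines stand far apart, and H1F0 fell by 0.89 on the log2 scale (SE 0.033, adjusted p = 1.06e-51). H1FX, the linker histone H1.10, fell by 0.32 (SE 0.070, adjusted p = 6.45e-05), to 46.5 CPM in HCT116oxR, against 58.1 CPM in parental cells.

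The genes H2AFZ and H2AFV encode the H2A.Z isoforms, which replace H2A at promoters. H2AFZ had 415.9, 376.3 and 392.6 CPM in HCT116oxR libraries, against 298.4, 284.3 and 282.7 CPM in parental libraries, and rose by 0.45 (SE 0.035, adjusted p = 5.73e-23). H2AFV had 216.5, 214.5 and 214.2 CPM in HCT116oxR, against 314.9, 323.5 and 323.3 CPM in parental cells, and fell by 0.58 (SE 0.037, adjusted p = 1.80e-29). The isoform genes thus moved in opposite directions, each without overlap between the lines. H2AFY2, a macroH2A gene, rose by 0.57 (SE 0.076, adjusted p = 1.83e-10), while its relative H2AFY averaged 392.1 CPM in HCT116oxR and 397.1 CPM in parental cells and was not called (adjusted p = 0.693). H2AFX, whose product is phosphorylated at DNA double-strand breaks, averaged 244 CPM in HCT116oxR and 254 CPM in parental cells and was not called (log2 fold change -0.057 ± 0.047, adjusted p = 0.346), but it was called lower without HCT116oxR replicate 2 (-0.125). H2AFJ and H3F3C had few counts and were not called (adjusted p = 0.453 and 0.895).

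H3F3B, which encodes the replacement histone H3.3, had 774.3, 732.2 and 770.4 CPM in HCT116oxR libraries, against 593.8, 596.1 and 583.6 CPM in parental libraries, and rose by 0.36 (SE 0.030, adjusted p = 4.79e-21). H3F3A, the other H3.3 gene, had only 6.28 CPM in HCT116oxR and 4.23 CPM in parental cells, with reads that may be shared with pseudogene copies, and its call (0.57 ± 0.215, adjusted p = 0.0234) was lost with DESeq2 and without HCT116oxR replicate 1, HCT116oxR replicate 3 or parental replicate 3. CENPA, the H3 variant of centromeres, had 37.8, 36.3 and 45.7 CPM in HCT116oxR, against 24.2, 26.9 and 22.1 CPM in parental cells, and rose by 0.71 (SE 0.092, adjusted p = 4.76e-11).

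**Figure D4:**
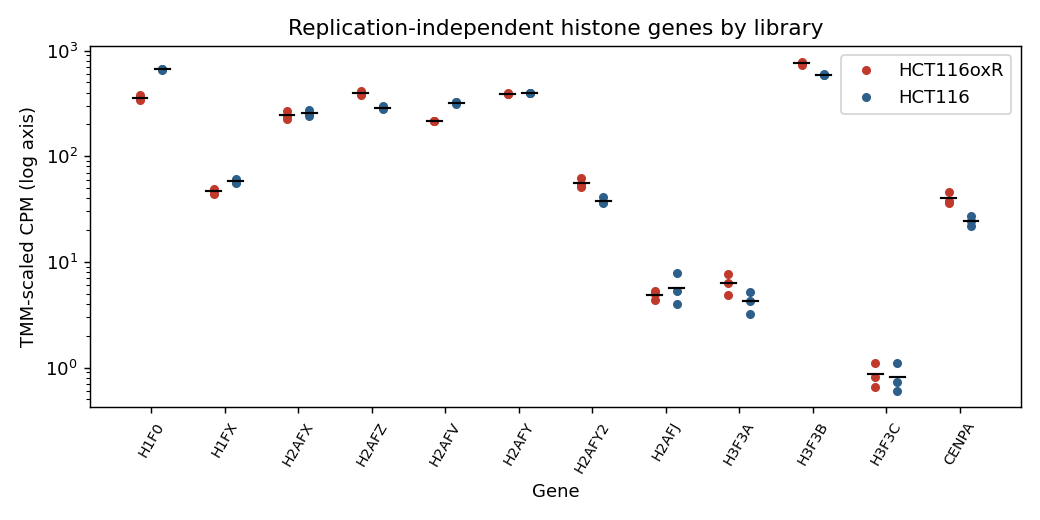
Level of the 12 replication-independent histone genes in each library, in TMM-scaled CPM on a log axis, with HCT116oxR points left of parental HCT116 points for each gene. H1F0, H1FX and H2AFV lie lower in every HCT116oxR library, and H2AFZ, H2AFY2, H3F3B and CENPA lie higher.

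The factors that make, process and degrade the stem-loop messages were counted next. Of 24 genes listed, 22 were tested, with 3 higher and 7 lower and a median log2 fold change of -0.029. The share called was 45.45%, against 44.1% of all genes. Among the 7 transcription factors and coactivators, 5 were lower and 1 higher. That is 71.4% lower, against 21.8% of all genes, and 14.3% higher, against 22.3% of all genes. NPAT, the coactivator that gathers at histone gene clusters, had 135.3, 123.0 and 125.4 CPM in HCT116oxR libraries, against 161.6, 160.1 and 154.2 CPM in parental libraries, and fell by 0.31 (SE 0.046, adjusted p = 4.87e-09). CASP8AP2 (FLASH), its partner in the histone locus body, fell by 0.38 (SE 0.048, adjusted p = 1.58e-11), to 114.4 CPM in HCT116oxR, against 148.6 CPM in parental cells. POU2F1, which encodes the octamer factor OCT1, rose by 0.22; it was chosen for mention after its values were seen.

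Among the 8 genes of 3′ end processing that were tested, 1 (12.5%) was called, against 44.1% of all genes. The gene called, SYMPK, a scaffold of the cleavage complex, rose by 0.30 (SE 0.041, adjusted p = 4.48e-10). SLBP had 84.6, 77.9 and 80.5 CPM in HCT116oxR, against 83.7, 81.2 and 80.9 CPM in parental cells, overlapping ranges with no call (log2 fold change -0.017 ± 0.058, adjusted p = 0.845). MIF4GD (SLIP1), which links SLBP to translation, rose by 1.11 (SE 0.12, adjusted p = 8.37e-14), to 23.3 CPM in HCT116oxR, against 10.9 CPM in parental cells. Among 7 tested genes of translation and decay, MIF4GD was the only one higher, and 2 were lower. Here 42.9% were called, against 44.1% of all genes.

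Histone chaperones, which carry histones to DNA, had 9 higher and 7 lower of 21 tested, with a median log2 fold change of -0.038. Here 76.2% were called, against 44.1% of all genes. TONSL, which binds newly made H4, rose by 0.53 (SE 0.080, adjusted p = 1.00e-08), and NAP1L1, an H2A-H2B chaperone, rose by 0.295 (SE 0.035, adjusted p = 9.31e-13). SUPT16H, a FACT subunit, rose by 0.21 (SE 0.031, adjusted p = 9.92e-09). DAXX, which deposits H3.3, fell by 0.33 (SE 0.060, adjusted p = 1.90e-06), so that it and the H3.3 gene H3F3B moved in opposite directions.

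Genes of cell cycle phases were set beside the histones. Of 44 S phase genes, 5 were higher and 20 lower in HCT116oxR, with a median log2 fold change of -0.10. That is 11.4% higher, against 22.3% of all genes, and 45.45% lower, against 21.8% of all genes. CCNE2, a cyclin of the start of S phase, rose by 0.88 (SE 0.10, adjusted p = 1.07e-12). MCM4, a subunit of the replicative helicase, fell by 0.27 (SE 0.033, adjusted p = 4.15e-12), and POLA2, a subunit of DNA polymerase alpha, fell by 0.37 (SE 0.058, adjusted p = 2.77e-08). Of 20 genes of G2 and mitosis, 19 (95.0%) were higher, against 22.3% of all genes, with a median of 0.47. KIF20A, a kinesin of cytokinesis, rose by 0.915 (SE 0.045, adjusted p = 2.32e-39), and TOP2A, which untangles chromosomes, rose by 0.50 (SE 0.032, adjusted p = 6.74e-29). The median of the 50 histone genes was -0.071. Whether cell cycle make-up has a part in the histone values was not tested.

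The libraries also differed in RNAs without a poly(A) tail. Of 15 such RNAs outside the histone set, 10 were tested, with 2 higher and 4 lower and a median of -0.27. That is 20% higher, against 22.3% of all genes, and 40% lower, against 21.8% of all genes. RN7SK, which restrains transcription elongation, had 4532, 5379 and 4745 CPM in HCT116oxR libraries, against 8613, 7836 and 8028 CPM in parental libraries, and fell by 0.74 (SE 0.081, adjusted p = 0.00164). RMRP, the RNA of RNase MRP, rose by 0.53 (SE 0.064, adjusted p = 9.93e-04), so these RNAs did not move one way. The 8 histone genes known to give polyadenylated messages as well had 3 called, all lower, and a median of -0.052, beside 3 higher, 11 lower and a median of -0.071 for the 42 other histone genes tested. The shares called were 37.5% of the 8 and 33.3% of the 42, against 44.1% of all genes.

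**Figure D5:**
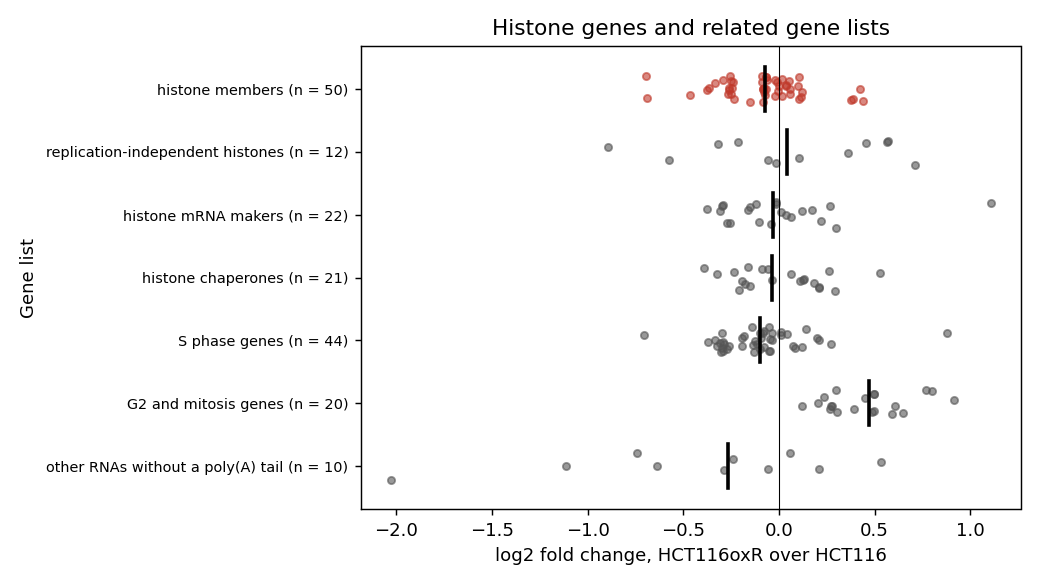
Log2 fold change of HCT116oxR over parental HCT116 for each tested gene of the histone set and of the related lists, 1 point per gene, with the median of each list marked. The 50 histone genes lie close around their median of -0.071, the replication-independent histones spread from -0.89 to 0.71, and the genes of G2 and mitosis all lie above 0 with a median of 0.47.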

How the data were processed

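The table deposited by the authors holds raw read counts per gene for 6 total RNA libraries, and the small RNA libraries of the series were not used here. Reads were aligned with HISAT2 to GRCh38, per the submitters' processing notes. Which tool counted the reads, with which annotation, whether by strand, and how ribosomal RNA and multiply mapped reads were treated is not given in the sources used.

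HCT116oxR was tested against parental HCT116 with edgeR 4.0.16 (R 4.3.3) over all genes: filterByExpr, TMM factors, a robust quasi-likelihood F test, 2-sided, with Benjamini-Hochberg adjustment at 0.05. Dividing the size of a log2 fold change by the root of its F statistic gave the SE. The procedure was tested on simulated counts. There, 56% of 50 genes set to a 1.25-fold change were called, and 98% of 50 genes set to a 2-fold change. Differences of 1.25-fold or less can thus go uncalled. The common coefficient of biological variation came to 4.77%. No libraries agreed within sampling noise (chi-square per degree of freedom at least 2.21). Limits from counts cover counting error only.

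Full statistics went to the 3 members of each family with the most CPM, the 4 with the highest and the 4 with the lowest log2 fold change, every replication-independent histone, SLBP, NPAT, CASP8AP2 and up to 4 called genes of each other list. Other called members were named as well. Members and lists were chosen with earlier results of these data known. Alternatives were size factors from DESeq2 1.42.0, no scaling factors, no filter on low counts, the DESeq2 test, a replicate block, leaving out each library, and leaving out members classed as pseudogenes. Promoters and positions are from RefSeq (GRCh38.p14).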

Additional observations from a re-analysis of the deposited data

Results flagged for a closer look

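A signal appeared in an entry outside the histone set. HIST1H1PS1, a pseudogene entry left out by the rule, had 9 counts over the HCT116oxR libraries (5, 2 and 2) and 0 in every parental library. The floor of 3 counts per library is passed in 1 library, the entry failed the filter on low counts, and the difference was not tested.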

How the results depend on the processing

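Of the 50 histone genes tested, all 50 kept their call with DESeq2 size factors and with the replicate block (3 higher and 14 lower), 49 without scaling factors, 49 without the filter on low counts and 46 with the DESeq2 test. Same-numbered cultures did not deviate together (correlations of 0.000544, -0.0227 and -0.0254), so the replicate number was not taken as a pairing. Over the 6 fits that left out 1 library, the count of higher members ranged from 1 to 3 and that of lower members from 10 to 23. The highest count was without HCT116oxR replicate 2, with 9 calls gained and 1 lost. The median ranged from -0.113 to -0.043. The other RNAs without a poly(A) tail had 1 to 2 higher. Some uncalled genes changed sign over these fits: the log2 fold change ranged from -0.026 to 0.077 for HIST1H2BD, from -0.043 to 0.031 for HIST1H2BO, from -0.003 to 0.079 for HIST1H4C, from -0.421 to 0.087 for H2AFJ, from -0.119 to 0.371 for H3F3C and from -0.048 to 0.011 for SLBP. The cause was not tested. Members under 1 CPM had too few counts to show differences of the size seen here.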
